A study of Homo sapiens with 16 samples.

Results

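Transcripts of 10 genes best known from neurons were followed in 16 RNA-seq libraries of 2 colon cancer cell lines. The genes were NGFR, CRMP1, DPYSL2, DPYSL3, DPYSL4, DPYSL5, GAP43, MAP1B, CPLX2 and EEF1A2. They were found by gene symbol in the FPKM table and joined by Ensembl identifier to the count table, 10 of 63677 identifiers in all. NGFR lies on chromosome 17, CRMP1 on 4, DPYSL2 on 8, DPYSL4 on 10, DPYSL5 on 2, GAP43 on 3 and EEF1A2 on 20, while DPYSL3, MAP1B and CPLX2 share chromosome 5. At least 4 of the 10 genes were picked from values measured in these same libraries. CPLX2 and GAP43 had stood out between empty-vector and parental SW620 libraries, and EEF1A2 and CRMP1 between ERB and empty-vector SW620 libraries, so those 2 comparisons are described here without a test. What picked the other 6 genes is not recorded. Tested comparisons that use parental SW620 or untreated SW620 ERB libraries share them with those 2 comparisons, so the choice may carry over.

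SW480 is a line grown from a primary colon adenocarcinoma and SW620 from a lymph node metastasis of the same patient. ERB is estrogen receptor beta, the product of ESR2. The 8 groups held 2 libraries each. In SW620 they were ERB-transduced cells given 10 nM estradiol (E2) for 24 hours, ERB-transduced cells given DMSO for 24 hours, ERB-transduced cells with no treatment, cells transduced with an empty vector, and untransduced parental cells. In SW480 they were untreated ERB-transduced, empty-vector and parental cells. Both lines were grown in DMEM with 10% serum. The labels do not say whether a transduced line was a pool or 1 clone, which vector was used, or whether libraries I and II came from separate cultures. Every p below therefore measures the spread between libraries, which may be technical. The empty-vector libraries are the controls of the ERB libraries and are themselves set against the parental ones, and the DMSO libraries serve in both treatment comparisons, so neighbouring comparisons share libraries.

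The 10 proteins have separate jobs in a nerve cell. NGFR is the p75 neurotrophin receptor, which binds nerve growth factor and its relatives alone or beside co-receptors such as sortilin. CRMP1 and the 4 DPYSL genes encode the collapsin response mediator proteins, which bind tubulin and pass semaphorin 3A signals to the growth cone. GAP43 is a membrane phosphoprotein of growing axon tips and MAP1B a microtubule-associated protein of developing axons. CPLX2 encodes complexin 2, which clamps and triggers SNARE-driven vesicle fusion. EEF1A2 is the translation elongation factor that takes over from EEF1A1 in neurons and muscle. Enteroendocrine cells of the gut epithelium use some of the same machinery.

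Total counts were 12743940 to 18948283 reads per library. Reads of ESR2, the transduced gene, were 180 and 157 in SW620 ERB cells with estradiol, 165 and 100 with DMSO, 162 and 187 in the untreated SW620 ERB libraries, 1 and 1 in the SW620 empty-vector libraries and 0 and 0 in parental SW620. They were 142 and 185 in the SW480 ERB libraries, 2 and 4 in the SW480 empty-vector libraries and 2 and 2 in parental SW480. The transduced libraries labelled SW480 stood apart from parental SW480. Across 299 genes at least 8-fold higher in both parental SW480 libraries than in both parental SW620 libraries, with the 10 neuronal genes left out, the median level was 17.0% and 20.9% of the parental SW480 mean in the libraries labelled SW480 ERB, 2.21% and 2.08% in those labelled SW480 empty vector, and 1.41% to 2.0% in the 10 SW620 libraries. Across 35 genes chosen the same way for parental SW620, the libraries labelled SW480 ERB held 54.4% and 48.3% of the parental SW620 mean, those labelled empty vector 28.8% and 66.2%, and parental SW480 4.58% and 5.59%. The 2 empty-vector libraries also differed more from each other than any other pair. Both comparisons that use these 4 libraries rest on their levels, and comparisons within SW620 and between the parental lines do not. All p-values from the fit of all 16 libraries share an estimate of the spread, so these 4 libraries enter them too.

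Most markers of nervous tissue were missing or low, but not all. Of 10 neuron markers, ELAVL3, ELAVL4, HAND2 and PHOX2A had 0 reads in every library, and RBFOX3 stayed under 1 CPM (count scaled to library size) throughout. In all, 6 stayed under that level, while SNAP25, SYT1, RET and TUBB3 reached it in some library. The neuron list summed to 10.8 to 102 CPM. Of 6 glia and Schwann cell markers, SOX10 had 0 reads and 5 of 6 stayed under 1 CPM, the remaining one being ERBB3. The glia list summed to 40.6 to 248 CPM. Of 11 colon epithelium markers, CDX1 and KRT20 stayed under 1 CPM, and the summed level of the list was 2641 to 26081 CPM. Of 6 fibroblast markers, 4 stayed under 1 CPM and the list summed to 1.89 to 15.9 CPM.

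Levels below are CPM scaled by TMM (trimmed mean of M-values), given as library I and library II, unless FPKM is named. All 10 genes passed the filter on low counts. Compared per length, EEF1A2 and DPYSL3 were the most abundant of the 10, with medians over 16 libraries of 56.1 and 57.8 FPKM. DPYSL2 followed at 13.2 FPKM, CRMP1 at 7.73 FPKM, NGFR at 5.38 FPKM, GAP43 at 3.58 FPKM and CPLX2 at 2.25 FPKM. MAP1B, DPYSL5 and DPYSL4 had medians under 1 FPKM, of 0.538, 0.179 and 0.149. The ratio of the highest to the lowest group mean in CPM was 2.03 for DPYSL2 and 2.99 for DPYSL3, against 65.3 for NGFR, 73.8 for MAP1B and 187 for DPYSL5.

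**Figure D1:**
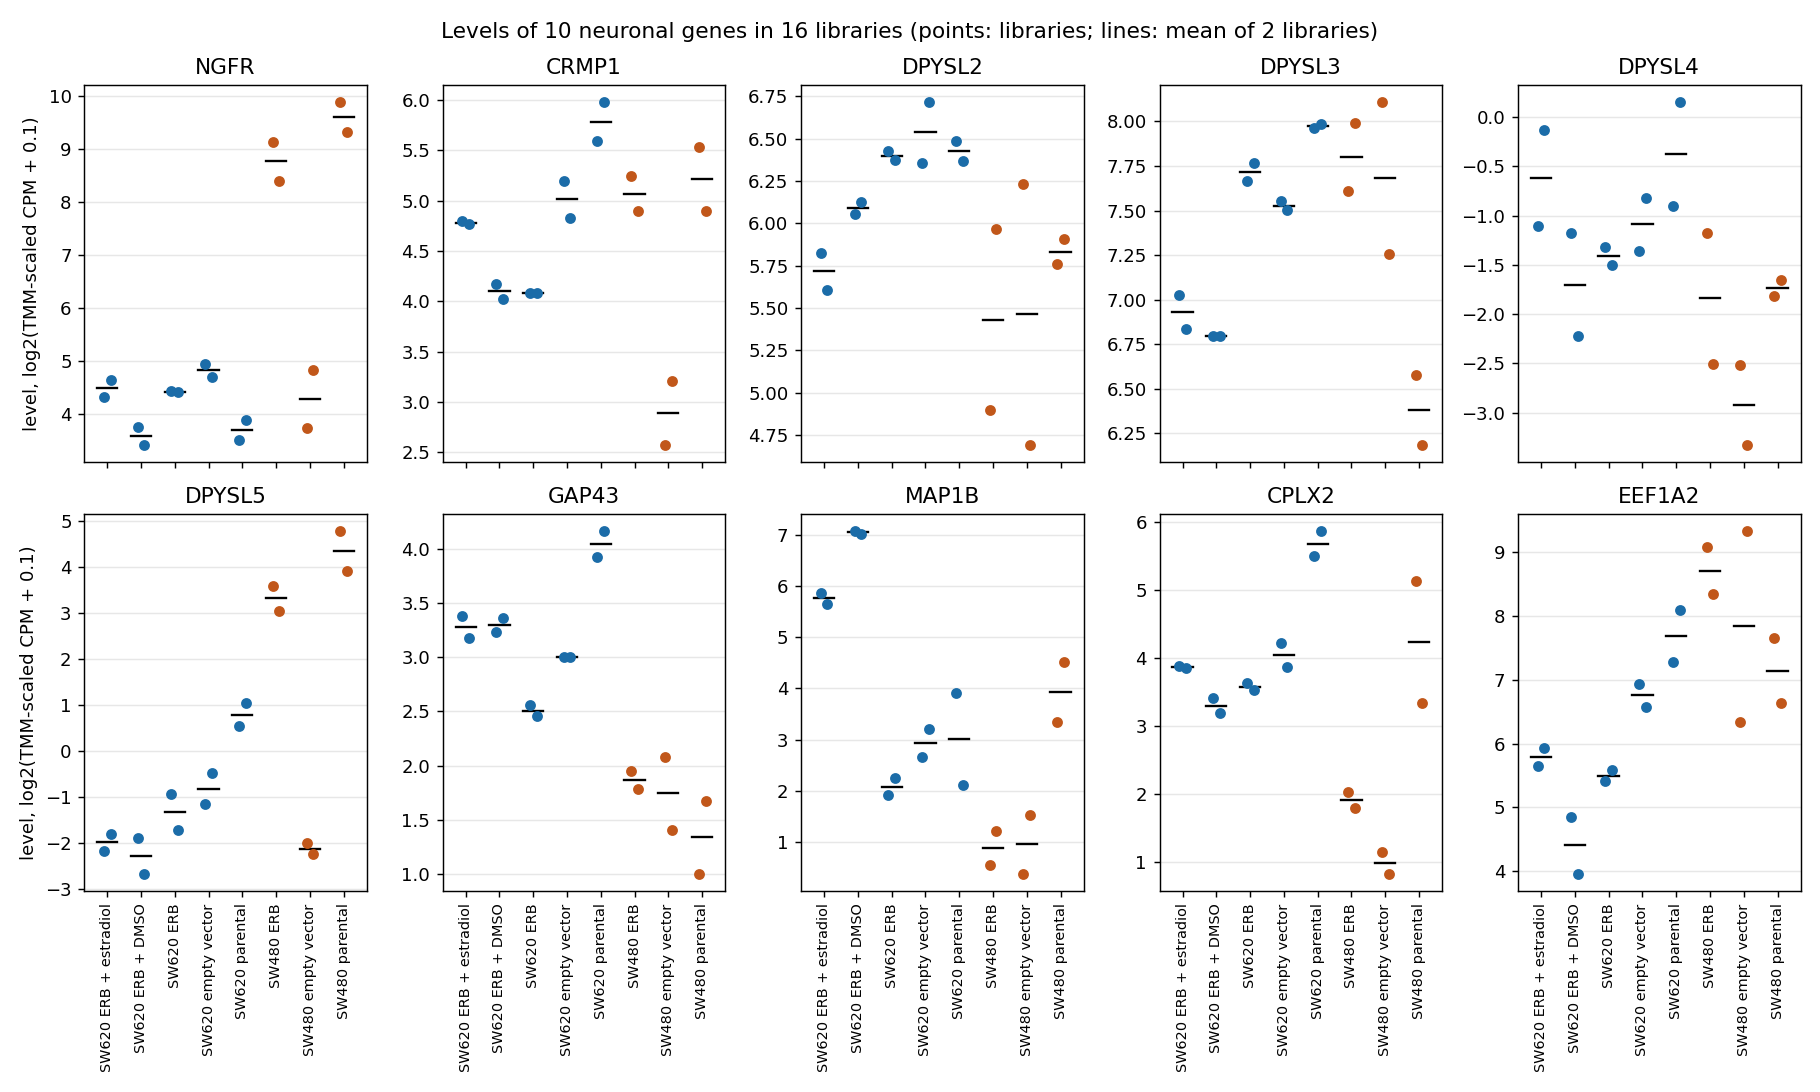
Level of each of the 10 genes in every library, as log2 of TMM-scaled CPM plus 0.1, with the 8 groups on the horizontal axis (blue, SW620; orange, SW480; line, mean of 2 libraries). NGFR and DPYSL5 are high in parental SW480 and in the libraries labelled SW480 ERB, and MAP1B is high in the 2 treated SW620 groups.

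NGFR was the gene with the widest gap between the 2 lines. It stood at 561 and 336 CPM in the libraries labelled SW480 ERB, 13.3 and 28.6 CPM in those labelled SW480 empty vector, and 943 and 637 CPM in parental SW480. In SW620 it was 19.9 and 25.1 CPM with estradiol, 13.5 and 10.7 CPM with DMSO, 21.6 and 21.3 CPM in untreated ERB cells, 30.9 and 26.1 CPM with the empty vector and 11.3 and 14.8 CPM in parental cells. The 4 libraries of parental SW480 and of SW480 ERB were all above the other 12, and the libraries labelled SW480 empty vector lay inside the SW620 range. In order of group means, parental SW480, SW480 ERB and SW620 empty vector each stood clear of the next group, while the remaining 5 groups overlapped their neighbours. Antisense RNA AC006487.1, which overlaps NGFR, had 5 reads over all libraries.

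DPYSL5 (CRMP5), the most distant relative in the family, followed NGFR. It had 12 and 8.17 CPM in the libraries labelled SW480 ERB, 0.150 and 0.111 CPM in those labelled SW480 empty vector, and 27.5 and 15.1 CPM in parental SW480. These rest on 105 and 107 reads with ERB, 2 and 1 with the empty vector and 445 and 346 in parental SW480. In SW620 it reached 1.36 and 1.95 CPM in parental cells, with 22 and 25 reads, and stayed at 12 reads or fewer in the 8 transduced libraries. Over the 16 libraries the correlation of DPYSL5 with NGFR on the log2 CPM scale was 0.90, a description of points that share libraries and depth. The RefSeq table of GRCh38.p14 promoters, which runs from 250 bases before to 50 after each gene start, held 7 of the 10 genes, with 13 starts in all. The first listed DPYSL5 start lies at chr2:26847745-26848044, plus strand. It is shown because the gene is all but silent in several groups and well expressed in parental SW480. Capitals mark the GC box, GGGCGG on either strand, a motif bound by SP1 and found in 45.0% of 35116 promoters.

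DPYSL5: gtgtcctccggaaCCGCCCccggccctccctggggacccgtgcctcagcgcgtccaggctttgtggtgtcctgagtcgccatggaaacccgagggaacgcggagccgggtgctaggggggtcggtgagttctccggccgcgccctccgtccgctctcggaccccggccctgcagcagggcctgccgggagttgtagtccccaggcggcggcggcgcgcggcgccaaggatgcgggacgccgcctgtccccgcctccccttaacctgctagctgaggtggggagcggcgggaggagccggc

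This DPYSL5 promoter is 74.3% G and C, above 89.7% of all promoters in the table. In all, 6 short motifs were searched on both strands in the 13 promoters of the 7 genes. None held the AP-1 site TGACTCA, present in 4.95% of all promoters, the single-arm estrogen response element AGGTCA, present in 13.8%, the full palindrome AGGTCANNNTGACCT, present in 0.00285%, or the left arm TTCAGCACC of the RE1 element, present in 0.376%. The single arm is contained in the palindrome. These statements cover only the letters within 300 bases.

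CRMP1 varied less than DPYSL5 and more than DPYSL2 and DPYSL3. It stood at 37.9 and 29.6 CPM in the libraries labelled SW480 ERB, 5.86 and 9.13 CPM in those labelled SW480 empty vector and 46.3 and 29.6 CPM in parental SW480. In SW620 it was 27.7 and 27.1 CPM with estradiol, 17.9 and 16.2 CPM with DMSO, 16.8 and 16.8 CPM in untreated ERB cells, 36.6 and 28.3 CPM with the empty vector and 48.1 and 63.0 CPM in parental cells. The lowest group was SW480 empty vector and the highest parental SW620, both clear of their neighbours. CRMP1 has 4 listed starts with 1 to 7 GC boxes each. The first, at chr4:5893037-5893336, minus strand, is shown for contrast with DPYSL5, and is 83.7% G and C with 7 GC boxes in capitals.

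CRMP1: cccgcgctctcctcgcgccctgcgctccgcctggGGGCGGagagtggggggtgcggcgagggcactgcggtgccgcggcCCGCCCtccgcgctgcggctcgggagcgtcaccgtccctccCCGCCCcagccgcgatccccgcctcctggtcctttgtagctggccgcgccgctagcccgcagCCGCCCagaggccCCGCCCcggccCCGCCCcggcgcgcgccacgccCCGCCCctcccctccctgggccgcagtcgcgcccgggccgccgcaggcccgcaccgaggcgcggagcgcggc

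DPYSL2 (CRMP2) and DPYSL3 (CRMP4), the widely expressed members of the family, changed least. DPYSL2 was 29.7 and 62.5 CPM in the libraries labelled SW480 ERB, 75.2 and 25.8 CPM in those labelled SW480 empty vector and 54.0 and 59.9 CPM in parental SW480, so that the transduced pairs differed more within a group than between groups. In the 10 SW620 libraries it ran between 48.6 and 105 CPM, with estradiol lowest at 56.7 and 48.6 CPM. PNMA2 overlaps DPYSL2 on the opposite strand and had 1157 reads over all libraries, against 18034 for DPYSL2. DPYSL3 was 195 and 254 CPM in the libraries labelled SW480 ERB, 276 and 153 CPM in those labelled SW480 empty vector and 95.2 and 72.7 CPM in parental SW480. It was 130 and 114 CPM in SW620 with estradiol, 111 and 111 CPM with DMSO, 203 and 218 CPM in untreated ERB cells, 188 and 181 CPM with the empty vector and 249 and 253 CPM in parental SW620. The lowest DPYSL3 libraries were thus the parental SW480 pair, followed by the 4 treated SW620 libraries. DPYSL4 (CRMP3) was near the detection limit, with 0 to 13 reads per library and 86 over all 16, and is given by its reads only. Between family members the aligned parts of the longest transcripts were 62.9% to 74.3% identical, and no identical stretch was longer than 34 bases.

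GAP43 was higher in SW620 than in SW480 libraries. It had 10.3 and 8.96 CPM with estradiol, 9.32 and 10.2 CPM with DMSO, 5.78 and 5.38 CPM in untreated ERB cells, 7.89 and 7.92 CPM with the empty vector and 15.1 and 17.8 CPM in parental SW620. The libraries labelled SW480 ERB held 3.76 and 3.36 CPM, those labelled SW480 empty vector 4.13 and 2.56 CPM and parental SW480 1.91 and 3.10 CPM. All 10 SW620 libraries were above all 6 labelled SW480. Within SW480 the empty-vector pair overlapped both other groups, and the ERB pair lay just above the parental pair. Its promoter, chr3:115623260-115623559, plus strand, is the poorest in G and C of those listed for the 7 genes, at 52.7%, and holds none of the 6 motifs. It is printed as the counterpart of the GC-rich promoters.

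GAP43: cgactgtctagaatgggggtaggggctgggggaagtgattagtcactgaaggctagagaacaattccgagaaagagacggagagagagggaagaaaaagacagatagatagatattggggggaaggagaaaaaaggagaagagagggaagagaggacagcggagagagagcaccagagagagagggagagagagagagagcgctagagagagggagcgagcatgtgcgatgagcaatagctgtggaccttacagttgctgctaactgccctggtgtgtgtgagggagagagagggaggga

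MAP1B was lower in every untreated library of both lines than in the 4 treated libraries, all of SW620. It reached 57.9 and 50.5 CPM in SW620 ERB cells with estradiol and 135 and 130 CPM with DMSO, against 3.67 and 4.62 CPM in untreated SW620 ERB cells. It was 6.21 and 9.11 CPM with the empty vector and 14.9 and 4.20 CPM in parental SW620. The libraries labelled SW480 ERB held 1.37 and 2.22 CPM, those labelled SW480 empty vector 1.2 and 2.78 CPM and parental SW480 10.0 and 22.7 CPM. The highest untreated library was parental SW480 library II, at 22.7 CPM. Among the 4 treated libraries the DMSO pair was the higher. On the FPKM scale the DMSO libraries held 12 and 11.4 and the untreated ERB libraries 0.285 and 0.314. The first listed MAP1B promoter, chr5:72107225-72107524, plus strand, is printed because MAP1B made the largest change of the 10 genes under treatment. Capitals mark the TATA box TATAAA, found in 11.5% of all promoters and in no listed start of the other 6 genes, and 3 GC boxes.

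MAP1B: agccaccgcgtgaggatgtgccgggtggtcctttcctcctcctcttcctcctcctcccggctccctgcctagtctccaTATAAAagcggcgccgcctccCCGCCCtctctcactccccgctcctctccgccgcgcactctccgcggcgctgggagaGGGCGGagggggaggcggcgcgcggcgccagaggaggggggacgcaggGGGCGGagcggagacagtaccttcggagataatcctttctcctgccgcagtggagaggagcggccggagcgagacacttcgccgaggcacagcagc

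CPLX2 had its highest group means in parental cells. In SW620 it was 14.7 and 14.3 CPM with estradiol, 10.5 and 9 CPM with DMSO, 12.3 and 11.4 CPM in untreated ERB cells, 18.5 and 14.5 CPM with the empty vector and 45.2 and 58.5 CPM in parental cells. The libraries labelled SW480 ERB held 3.99 and 3.36 CPM, those labelled SW480 empty vector 2.1 and 1.67 CPM and parental SW480 35.1 and 10.0 CPM. All 12 transduced libraries were below both parental SW620 libraries, and the 4 transduced SW480 ones were the lowest of all. CPLX2 and CRMP1 had a correlation of 0.76 on the log2 CPM scale over 16 libraries, but parted in the libraries labelled SW480 ERB. There CRMP1 averaged 33.7 CPM, against 38.0 CPM in parental SW480, and CPLX2 3.68 CPM, against 22.6 CPM. Both genes were picked from SW620 comparisons among these libraries.

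EEF1A2 varied most between libraries of 1 group. It stood at 544 and 325 CPM in the libraries labelled SW480 ERB, 81.1 and 646 CPM in those labelled SW480 empty vector and 201 and 100 CPM in parental SW480. In SW620 it was 49.9 and 60.9 CPM with estradiol, 28.9 and 15.5 CPM with DMSO, 42.4 and 47.9 CPM in untreated ERB cells, 123 and 95.7 CPM with the empty vector and 155 and 274 CPM in parental cells. The 4 highest groups all overlapped their neighbours, and the empty-vector pair labelled SW480 spanned the whole of that range. EEF1A1, the form found in most cells, had group means of 471 to 785 CPM. The longest EEF1A1 and EEF1A2 transcripts were 78.6% identical over the 1385 bases that aligned, with no shared stretch over 20 bases.

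Between the parental lines, SW620 expressed less NGFR and DPYSL5 and more GAP43 and DPYSL3 than SW480. A change was called where the adjusted p of the edgeR quasi-likelihood test, corrected over 17464 genes by Benjamini and Hochberg, was under 0.05. By that rule 2 of the 10 rose and 2 fell in SW620, beside 18% of all genes tested that were called in either direction. NGFR averaged 13.0 ± 2.48 CPM in SW620 and 790 ± 216 CPM in SW480 (SD, n = 2 each), 60.6-fold lower in SW620 with an edgeR adjusted p of 1.9e-05. DPYSL5 was 12.9-fold lower in SW620, at 1.66 ± 0.412 CPM against 21.3 ± 8.75 CPM in SW480 (edgeR adjusted p = 0.00037). GAP43 was 6.56-fold higher in SW620, at 16.4 ± 1.95 CPM against 2.51 ± 0.837 CPM in SW480 (edgeR adjusted p = 0.00036). GAP43 and CPLX2 were picked from a comparison that used these parental SW620 libraries, so their values here carry that choice. DPYSL3 was 2.99-fold higher in SW620, at 251 ± 3.12 CPM against 83.9 ± 16 CPM in SW480 (edgeR adjusted p = 0.0031). CPLX2 missed the threshold at a log2 fold change of 1.2 ± 0.46 (SE) and an edgeR adjusted p of 0.094. Without parental SW480 library I its log2 fold change was 2.35 with an adjusted p of 0.0023. CRMP1, DPYSL2, DPYSL4, MAP1B and EEF1A2 had edgeR adjusted p-values of 0.12 to 0.64. With GC and length offsets, 6 of the 10 were called in place of 4, the added ones being CPLX2 at 1.34 (adjusted p = 0.014) and CRMP1 at 0.48 (adjusted p = 0.038), while 6163 genes in all were called in place of 3147. Cell type markers differed between the same libraries. Of 6 tested neuroendocrine markers, 4 were higher in SW620 and 0 lower, and CHGB, a granin, averaged 15.4 ± 2.27 CPM in SW620 and 1.42 ± 0.526 CPM in SW480. The summed level of that list of 12 was 35.8 to 36.3 CPM in SW620 and 4.8 to 6.42 CPM in SW480. Of 9 tested colon epithelium markers, 3 were higher in SW620 and 0 lower, namely VIL1, HNF4A and CDH17, and that list of 11 summed to 5440 to 8915 CPM in SW620 and 2641 to 5009 CPM in SW480. The part of these markers in the member differences was not tested.

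**Figure D2:**
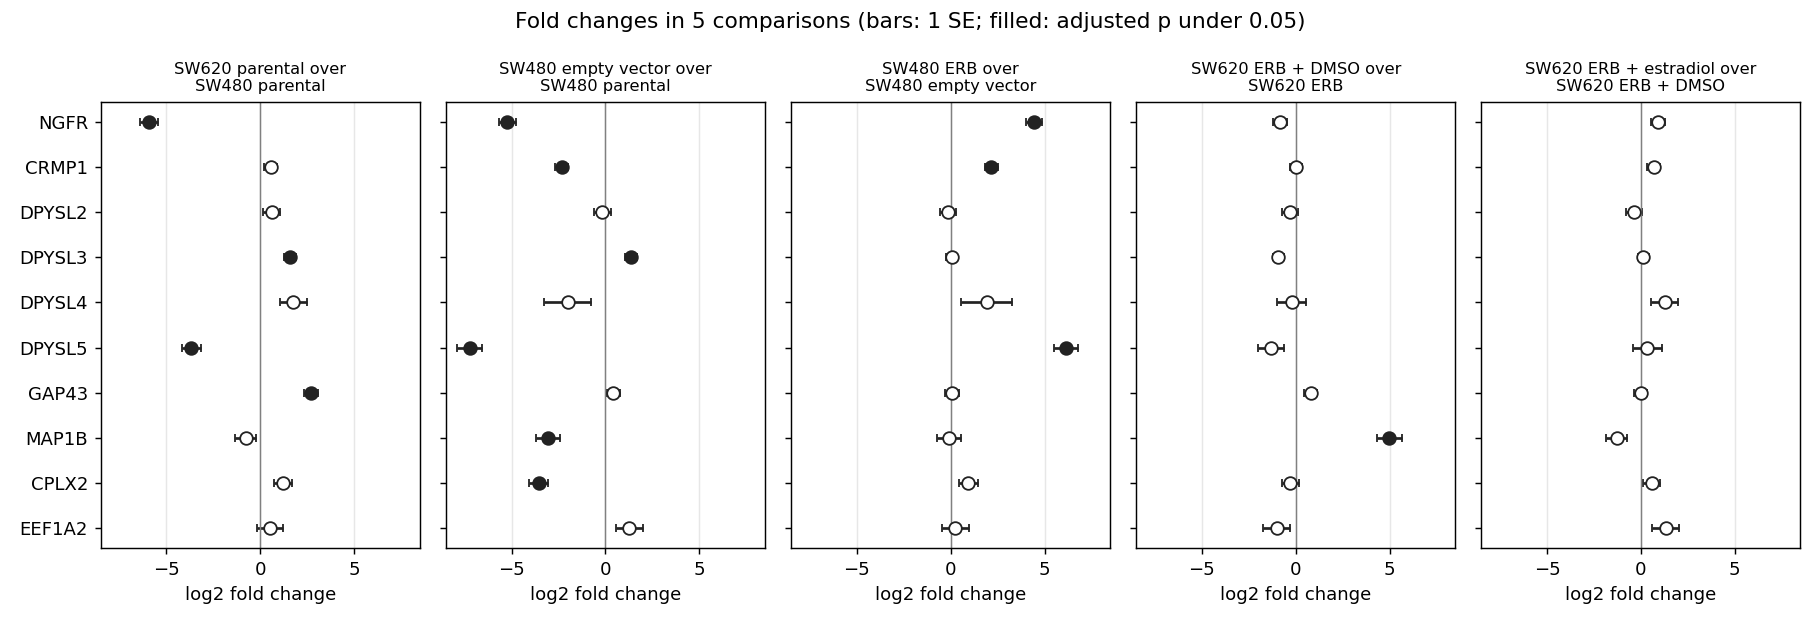
Log2 fold change of each of the 10 genes in the 5 tested comparisons, with bars of 1 standard error and filled points where the edgeR adjusted p was under 0.05. NGFR and DPYSL5 lie left of 0 in the first 2 panels and right of 0 in the third, and MAP1B is the filled point of the fourth. The fitted DPYSL5 values against the SW480 empty-vector libraries, with 3 reads in all, depend on the prior count.

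The libraries labelled SW480 empty vector had less NGFR, DPYSL5, CPLX2, MAP1B and CRMP1 and more DPYSL3 than parental SW480. That made 5 of the 10 lower and 1 higher, beside 30.9% of all genes tested that were called in either direction. NGFR averaged 21.0 ± 10.8 CPM with the vector and 790 ± 216 CPM in parental SW480 (SD, n = 2 each), a log2 fold change of -5.24 ± 0.45 (SE, edgeR adjusted p = 3.1e-05). DPYSL5 had 3 reads over both empty-vector libraries and 791 over both parental ones. Scaled by total counts that was 220-fold lower with the vector, with a 95% counting interval of 74.8 to 1067 that covers counting error only. After TMM scaling the means were 0.131 ± 0.0275 CPM with the vector and 21.3 ± 8.75 CPM in parental SW480, a smaller ratio (edgeR adjusted p = 4.8e-05). CPLX2, MAP1B and CRMP1 had log2 fold changes of -3.56, -3.06 and -2.34, with edgeR adjusted p-values of 0.00062, 0.0047 and 0.00064. CPLX2 was -2.42 without parental library I and -4.21 without library II. MAP1B was -2.37 without parental library II, -3.77 without empty-vector library II and -1.85 with GC and length offsets. All of these kept the call. NGFR was -5.9 without empty-vector library II. DPYSL3 rose by 1.36 ± 0.30 (SE, edgeR adjusted p = 0.0064). Within the 6 libraries labelled SW480 alone, NGFR and DPYSL5 were still called and the other 4 were not, with adjusted p-values up to 0.18. DPYSL3 was also lost without parental library II, at a log2 fold change of 1.17 and an adjusted p of 0.064, and in all 3 limma fits of FPKM, at 0.90 to 0.92 with adjusted p-values of 0.065 to 0.082. MAP1B was lost in the limma fit of log2(FPKM + 1) without a filter, at an adjusted p of 0.058. EEF1A2 was not called at 1.27 ± 0.71, but was 2.09 and called without empty-vector library I (adjusted p = 0.0047) and -0.91 without library II. DPYSL2 likewise was -1.15 and called without library I (adjusted p = 0.027) and 0.39 without library II. Leaving out empty-vector library I raised the calls over all genes to 10643, against 5399 with it. In the same comparison the 299 genes of parental SW480 described above stood at a median of 2.21% and 2.08% of their parental mean, against 1.41% to 2.0% in SW620, and their part in these changes was not tested. Of 9 tested colon epithelium markers, 5 also rose with the vector and 0 fell, at a median log2 fold change of 2.0. HNF4A averaged 223 ± 35.2 CPM with the vector and 29.2 ± 2.1 CPM in parental SW480, and VIL1 (villin) 631 ± 29.9 CPM with the vector and 104 ± 7.91 CPM in parental SW480 (edgeR adjusted p = 2.7e-05 and 5.6e-05). The part of this shift was likewise not tested.

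In the libraries labelled SW480 ERB, NGFR, DPYSL5 and CRMP1 were higher than in those labelled SW480 empty vector. That made 3 of 10 higher and 0 lower, beside 1.1% of all genes tested that were called in either direction, and all 192 genes called were higher. NGFR averaged 449 ± 159 CPM with ERB and 21.0 ± 10.8 CPM with the vector (SD, n = 2 each), a log2 fold change of 4.42 ± 0.43 (SE, edgeR adjusted p = 0.00059). DPYSL5 had 212 reads with ERB and 3 with the vector, 69.4-fold higher when scaled by total counts, with a counting interval of 23.4 to 339 (edgeR adjusted p = 0.00088). CRMP1 averaged 33.7 ± 5.82 CPM with ERB and 7.49 ± 2.31 CPM with the vector, a log2 fold change of 2.17 ± 0.34 (edgeR adjusted p = 0.0085). CRMP1 was not called without ERB library I, and 0 of the 3 were called in an edgeR fit of the 6 libraries labelled SW480 alone, where 3 of the 10 had an unadjusted p under 0.05 and 0 genes in all were called. EEF1A2 was called without empty-vector library II, at 2.36 (adjusted p = 0.043), where 867 genes in all were called in place of 192. NGFR was 5.01 without empty-vector library II and 3.76 with GC and length offsets, called in both. NGFR and DPYSL5 stood at 71.0% and 42.6%, and at 56.2% and 38.4%, of the parental SW480 mean in the ERB libraries. The median of the 299 other genes high in parental SW480 was 17.0% and 20.9% in those libraries, above their level with the vector, and the part of this in the rise of the 3 genes was not tested. Both SW480 comparisons use the same empty-vector libraries. DPYSL3, with fold changes of 0.07 ± 0.29 on the log2 scale here, and GAP43, at 0.08 ± 0.36, did not pass the test.

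**Figure D3:**
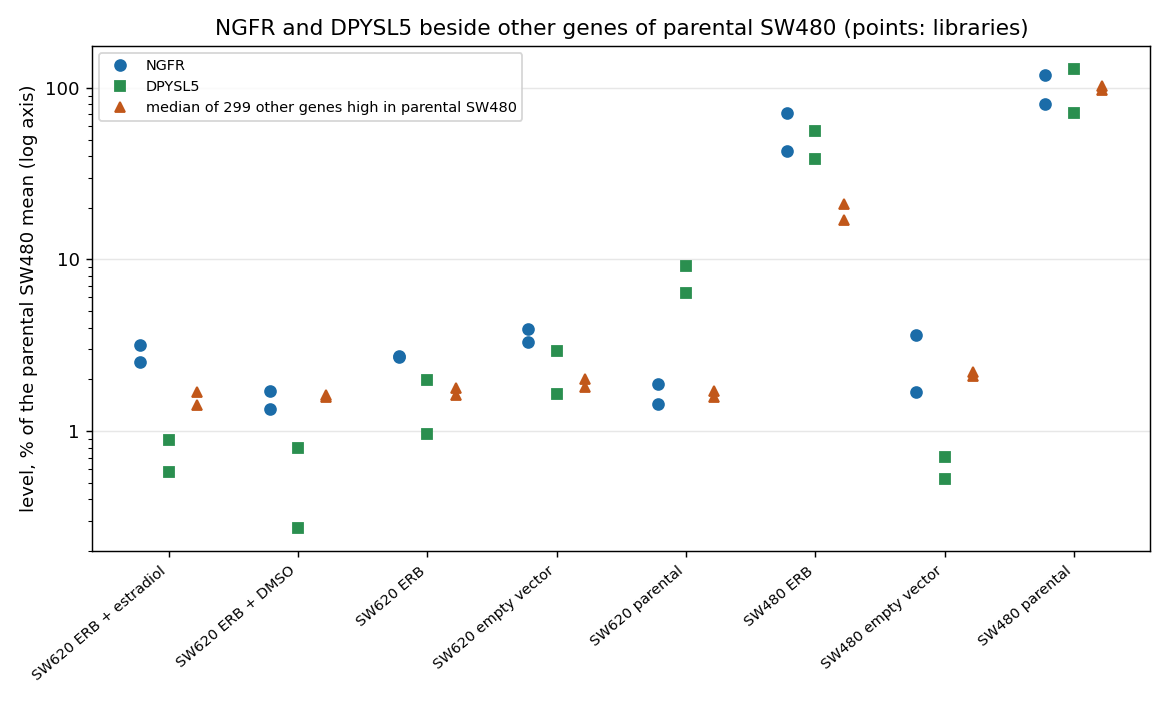
Level of NGFR (circles), of DPYSL5 (squares) and the median over 299 other genes high in parental SW480 (triangles), each as a percentage of its own parental SW480 mean on a log axis, with the 8 groups on the horizontal axis and 1 point per library. In the libraries labelled SW480 ERB the triangles lie at 17.0% and 20.9% and the other symbols between 38.4% and 71.0%, and in those labelled SW480 empty vector all points lie under 4%.

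In SW620 the empty vector and ERB were followed by smaller differences, given here without a test. With the empty vector, CPLX2 averaged 16.5 ± 2.80 CPM against 51.8 ± 9.38 CPM in parental cells (SD, n = 2 each), a log2 fold change of -1.65. GAP43 averaged 7.91 ± 0.0178 CPM with the vector and 16.4 ± 1.95 CPM in parental cells, a log2 fold change of -1.06. NGFR was the only one of the 10 whose empty-vector libraries were both above the parental ones, at 28.5 ± 3.43 CPM against 13.0 ± 2.48 CPM. In CRMP1, DPYSL3, DPYSL5, GAP43, CPLX2 and EEF1A2 both vector libraries were below the parental ones. That made 7 of the 10 without overlap, beside 24.5% of all genes tested, in a comparison that helped to choose the genes. Over all genes 0% were called in this comparison by edgeR, with 276 at an unadjusted p under 0.05 and 7 called by DESeq2. With ERB, EEF1A2 averaged 45.1 ± 3.85 CPM against 109 ± 19.3 CPM with the vector, and CRMP1 16.8 ± 0.0301 CPM against 32.4 ± 5.87 CPM with the vector. The log2 fold changes were -1.28 and -0.95. Over all genes 0.00573% were called, which is 1 gene.

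DMSO-treated SW620 ERB cells expressed more MAP1B than untreated SW620 ERB cells. It averaged 132 ± 3.53 CPM with DMSO and 4.15 ± 0.670 CPM untreated (SD, n = 2 each), 31.9-fold higher, with an edgeR adjusted p of 0.0047. MAP1B was the only one of the 10 called, beside 6.15% of all genes tested. The call was lost when any 1 of the 4 libraries was left out, with adjusted p-values up to 0.083, while the log2 fold change stayed between 4.83 and 5.16. In those fits 0 to 13 genes in all were called. In a fit of the 10 SW620 libraries alone the MAP1B change was 4.99 on the log2 scale with an adjusted p of 0.00015. That fit also called GAP43, at a log2 fold change of 0.80, and DPYSL3, EEF1A2 and NGFR, at -0.92, -1.02 and -0.82, beside 48.8% of all genes tested in it. With offsets for GC content and transcript length on the same 10 libraries, GAP43 and DPYSL3 were called at 0.73 and -0.93, NGFR and EEF1A2 were not, at -0.11 and -0.28 (adjusted p = 0.47 and 0.18), and CRMP1 was called at 0.51 (adjusted p = 0.0043). In the 16-library fit without offsets GAP43 was 9.74 ± 0.591 CPM with DMSO and 5.58 ± 0.281 CPM untreated (edgeR adjusted p = 0.15), and DPYSL3 was 111 ± 0.0837 CPM with DMSO and 210 ± 10.0 CPM untreated (edgeR adjusted p = 0.077). DESeq2 called these 2 as well as MAP1B. CRMP1 and EEF1A2 were picked from a comparison that used these untreated SW620 ERB libraries, so their values here carry that choice. The 2 treated groups also differ from the untreated ones by whatever handling went with treatment, which the labels do not describe and which cannot be told apart from DMSO.

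Neuroendocrine markers moved in the same comparison. Of 12 markers of enteroendocrine and neuroendocrine cells, 6 were tested and 4 of these rose with DMSO. Among them CHGB, a granin of secretory granules, averaged 22.6 ± 1.78 CPM with DMSO and 3.83 ± 0.475 CPM untreated, SCG3 averaged 3.36 ± 0.668 CPM with DMSO and 0.278 ± 0.0334 CPM untreated, and SCG5 averaged 2.23 ± 0.441 CPM with DMSO and 0.102 ± 0.144 CPM untreated. Their edgeR adjusted p-values were 0.0076, 0.0067 and 0.032. The summed level of the 12 was 94.8 to 97.6 CPM with estradiol, 69.3 to 71.4 CPM with DMSO and 18.5 to 18.7 CPM in untreated SW620 ERB cells. The median log2 fold change of the 6 tested was 2.18 with DMSO over untreated and -0.34 with estradiol over DMSO. The higher sum with estradiol was thus not a rise of the whole list, and CHGB averaged 14.9 ± 1.57 CPM there. The defining factors INSM1, NEUROD1 and NEUROG3 stayed under 1 CPM in every library. The summed level of the 10 neuron markers was 101 to 102 CPM with DMSO and 33.4 to 37.5 CPM untreated. The median log2 fold change of the 4 tested was -0.15, so the sum does not speak for the whole list. Of these 4, 0 were called by edgeR or by DESeq2, with 2 at an unadjusted edgeR p under 0.05. The colon epithelium list moved the other way, summing to 3069 to 3505 CPM with DMSO and 9003 to 9054 CPM untreated, and VIL1 (villin) fell to 276 ± 1.33 CPM with DMSO, against 597 ± 32.0 CPM untreated (edgeR adjusted p = 0.02). The part of these shifts in the MAP1B change was not tested.

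Estradiol-treated SW620 ERB cells were set against DMSO-treated ones, the comparison that asks for the response to the hormone. Of the 10 genes, 0 were called by edgeR in the 16-library fit and 0 by DESeq2, with 2 at an unadjusted edgeR p under 0.05, and 0% of all genes tested were called, although 3469 had an unadjusted p under 0.05. MAP1B averaged 54.2 ± 5.23 CPM with estradiol and 132 ± 3.53 CPM with DMSO (SD, n = 2 each), a log2 fold change of -1.29 ± 0.56 (SE, edgeR adjusted p = 0.24). NGFR averaged 22.5 ± 3.69 CPM with estradiol and 12.1 ± 1.99 CPM with DMSO, and CRMP1 27.4 ± 0.423 CPM with estradiol and 17.1 ± 1.2 CPM with DMSO. EEF1A2 averaged 55.4 ± 7.78 CPM with estradiol and 22.2 ± 9.53 CPM with DMSO, and CPLX2 14.5 ± 0.263 CPM with estradiol and 9.76 ± 1.07 CPM with DMSO. The estradiol and DMSO libraries did not overlap in scaled CPM in these 5 genes nor in DPYSL2, DPYSL3 and DPYSL4, 8 of 10, which also held for 80.7% of all genes tested. The reads of DPYSL4 themselves, 6 and 13 with estradiol and 8 and 2 with DMSO, did overlap. GAP43 differed by less than the spread, at 9.64 ± 0.963 CPM with estradiol and 9.74 ± 0.591 CPM with DMSO.

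A fit of the 10 SW620 libraries alone called 5 of the 10 genes in the estradiol comparison, beside 53% of all genes tested. NGFR, CRMP1, EEF1A2 and CPLX2 were higher by 0.91, 0.69, 1.32 and 0.58 on the log2 scale and MAP1B had a log2 fold change of -1.27. When the same 10 libraries were fitted with offsets for GC content and transcript length, none of these 4 was called. MAP1B then had a log2 fold change of -0.66 and an adjusted p of 0.048, and DPYSL2 one of -0.49 and an adjusted p of 0.028. In the 16-library fit with such offsets the estradiol values were -0.04 for NGFR, -0.01 for CRMP1, 0.40 for EEF1A2, -0.07 for CPLX2 and -0.68 for MAP1B. The DMSO change of MAP1B kept its call with offsets, at 4.41 ± 0.48 (SE).

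**Figure D4:**
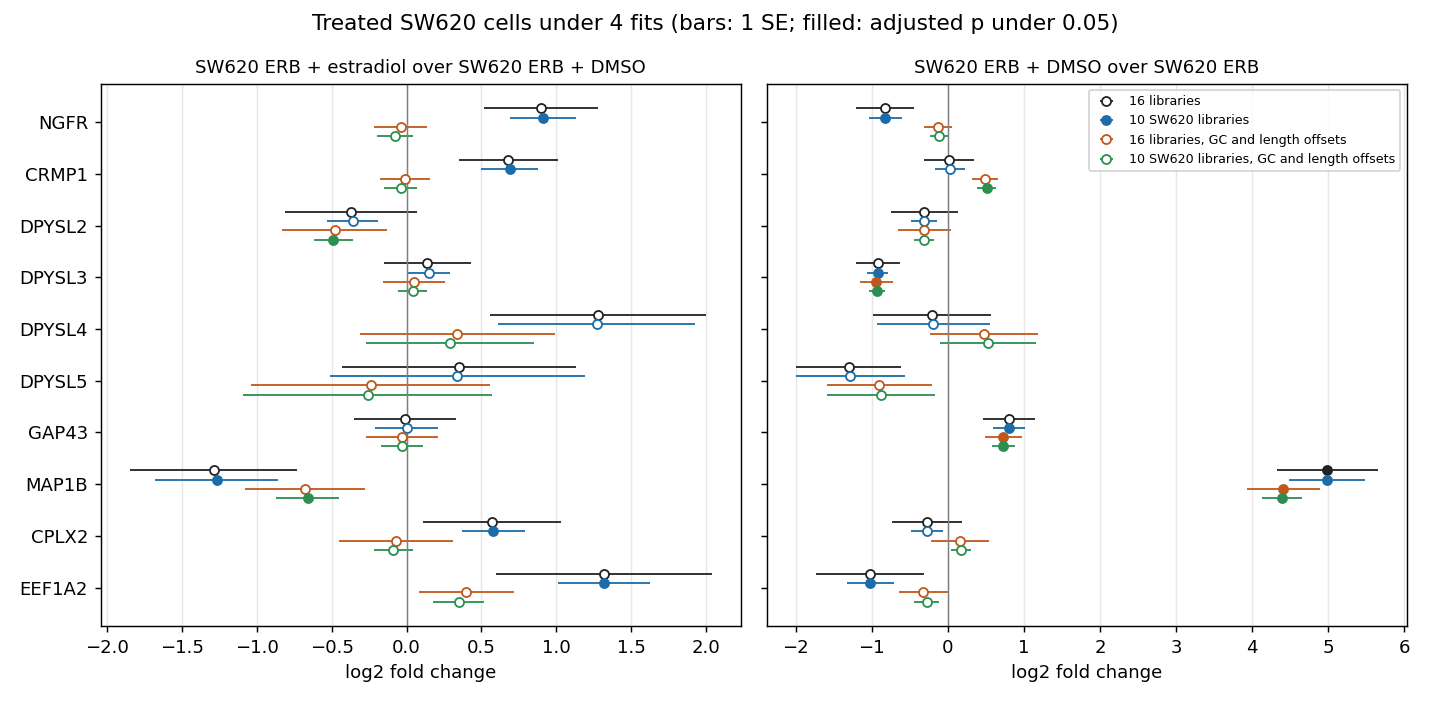
Log2 fold change of the 10 genes with estradiol over DMSO (left) and with DMSO over no treatment (right) in SW620 ERB cells, under 4 fits distinguished by colour, with bars of 1 standard error and filled points where the adjusted p was under 0.05. With GC and length offsets the NGFR, CRMP1 and CPLX2 values on the left lie near 0, and MAP1B on the right stays above 4 in every fit.

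Other genes of the same pathways were read from lists. Their counts below stand beside the shares of all genes called, 18% between the parental lines, 30.9% for the SW480 vector, 1.1% for SW480 ERB, 6.15% for DMSO and 0% for estradiol. Between the parental lines the median log2 fold change was -0.07 for neurotrophin signalling, -0.42 for semaphorin signalling, -0.88 for microtubules and growth cone, -0.02 for exocytosis and 0.46 for elongation, beside -0.05 over all genes tested. Of 29 genes of neurotrophin and p75 signalling 19 were tested. In parental SW620 against parental SW480 2 rose and 3 fell. BDNF, a ligand of p75 and TrkB, averaged 0.0389 ± 0.0551 CPM in SW620 and 5.19 ± 1.92 CPM in SW480 (edgeR adjusted p = 0.00044). MAGED1, a p75 partner, rose in SW620 by 1.69 on the log2 scale and SORCS2, a sortilin relative, by 2.17. In the libraries labelled SW480 empty vector 3 rose and 5 fell against parental SW480, and BDNF had 0 reads in both, against 62 and 150 in parental SW480. With ERB in SW480 0 were called by edgeR, with 3 at an unadjusted p under 0.05 and 1 called by DESeq2, and BDNF had 7 and 13 reads. With DMSO MAGED1 was the 1 gene called, at a log2 fold change of -1.28. With estradiol 0 were called by edgeR or DESeq2, with 1 at an unadjusted edgeR p under 0.05. Of the neurotrophin receptor genes, NTRK3 had 0 reads in every library and NTRK2 (TrkB) averaged 0.953 to 6.69 CPM by group. SORT1 (sortilin) averaged 60.6 to 168 CPM by group, highest in parental SW480.

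Of 22 genes of semaphorin 3A signalling and CRMP regulation 21 were tested. In parental SW620 2 rose and 3 fell against parental SW480. The receptor gene PLXNA2 averaged 13.1 ± 1.22 CPM in SW620 and 0.202 ± 0.0233 CPM in SW480, and NRP1, the semaphorin 3A-binding co-receptor, 8.24 ± 1.41 CPM in SW620 and 47.5 ± 3.20 CPM in SW480. The kinase gene FYN rose in SW620 by 1.45 on the log2 scale. The libraries labelled SW480 empty vector had 3 higher and 3 lower than parental SW480, PLXNA2 and FYN among the higher, and ROCK1 among the lower at a log2 fold change of -3.41. With ERB in SW480, with DMSO and with estradiol 0 were called by edgeR, with 6, 7 and 7 at an unadjusted p under 0.05, while DESeq2 called 0, 3 and 0.

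Of 30 genes of neuronal microtubules and the growth cone 18 were tested. In parental SW620 4 rose and 4 fell against parental SW480. Doublecortin-like kinase DCLK1 averaged 0.0310 ± 0.0438 CPM in SW620 and 85.0 ± 36.1 CPM in SW480, and the tubulin gene TUBB2A 6.59 ± 1.25 CPM in SW620 and 64.0 ± 20.9 CPM in SW480. MAPT, which encodes tau, had a log2 fold change of -2.63. The same 3 genes led the 6 that fell in the libraries labelled SW480 empty vector, where 3 rose. With ERB the 2 called genes were TUBB2A, higher by 2.17, and DCLK1, higher by 3.12 on the log2 scale than with the vector. With DMSO the neurofilament relative PRPH rose, at 1.13 ± 0.624 CPM against 0.0301 ± 0.0426 CPM untreated, while MARCKSL1 and STMN1 (stathmin, a tubulin-binding protein) had log2 fold changes of -1.57 and -1.17. With estradiol 0 were called by edgeR or DESeq2, with 1 at an unadjusted edgeR p under 0.05. DCLK1 and TUBB2A were, like NGFR and DPYSL5, highest in parental SW480 and lowest in the empty-vector pair among the 3 groups labelled SW480.

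Of 32 genes of synaptic vesicle exocytosis 26 were tested. In parental SW620 3 rose and 3 fell against parental SW480. RAB3B, a vesicle GTPase, averaged 0.0620 ± 0.0877 CPM in SW620 and 62.6 ± 6.40 CPM in SW480, while SYT11 and SYP (synaptophysin) rose in SW620 by 2.05 and 2.25 on the log2 scale. In the libraries labelled SW480 empty vector 3 rose and 5 fell against parental SW480, RAB3B, SNAP25 and UNC13A among the lower. With ERB RAB3B was the 1 gene called, at 4.98 ± 2.36 CPM against 0.487 ± 0.374 CPM with the vector. With DMSO 2 rose and 2 fell. UNC13A, a vesicle priming factor, was 8.82 ± 0.715 CPM with DMSO and 1.64 ± 0.158 CPM untreated, SYP was 40.2 ± 0.170 CPM with DMSO and 11.6 ± 0.809 CPM untreated, and SYN2 was among those that fell. With estradiol 0 of the 26 were called by edgeR or DESeq2, with 5 at an unadjusted edgeR p under 0.05.

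Of 14 genes of translation elongation 13 were tested. EIF5A2 was the 1 gene called in parental SW620 against parental SW480, at a log2 fold change of -3.5. In the libraries labelled SW480 empty vector 4 rose and 1 fell. EEF2 averaged 8828 ± 7948 CPM with the vector and 2161 ± 1107 CPM in parental SW480, an SD close to the mean with the vector. EIF5A fell with DMSO, at a log2 fold change of -1.79. With ERB in SW480 and with estradiol 0 were called by edgeR or DESeq2, with 0 and 2 at an unadjusted edgeR p under 0.05.

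REST, the repressor that binds RE1 elements of neuronal genes, and 15 genes of its corepressor complexes were all tested. REST averaged 4.04 ± 2.96 CPM in parental SW620 and 30.6 ± 25.2 CPM in parental SW480, a log2 fold change of -2.91 ± 0.83 (edgeR adjusted p = 0.03). In the libraries labelled SW480 empty vector against parental SW480 it had the same log2 fold change of -2.91 (edgeR adjusted p = 0.023). Its 2 parental SW480 libraries held 207 and 1109 reads. It averaged 4.39 ± 0.445 CPM with estradiol and 15.8 ± 1.33 CPM with DMSO (edgeR adjusted p = 0.24), against 7.48 ± 2.11 CPM in untreated SW620 ERB cells. REST had its highest mean in parental SW480, the group with the most NGFR and DPYSL5. Its lowest mean, 1.16 ± 0.839 CPM from 5 and 23 reads, was in the libraries labelled SW480 ERB. That group had the next most NGFR and DPYSL5. The part of REST in these levels was not tested. Of the 16 genes 3 rose and 2 fell in parental SW620 and 6 rose and 3 fell with the vector in SW480. RCOR2 rose by 1.84 and 2.83 on the log2 scale in these 2 comparisons. HDAC1 and KDM1A fell with DMSO, at log2 fold changes of -1.07 and -1.0. With ERB in SW480 and with estradiol 0 of the 16 were called by edgeR or DESeq2, with 0 and 5 at an unadjusted edgeR p under 0.05.

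The genes whose levels followed each of the 10 most closely were taken by Pearson correlation of log2 CPM over 16 libraries, among tested genes with a mean of at least 1 CPM. NGFR was followed by TNFAIP2 (0.981), MGMT (0.981) and FAM20C (0.98). DPYSL5 was followed by NPTX2 (0.975), OLFML2A (0.963) and KMT2E-AS1 (0.96). MAP1B was followed by ZNF839 (0.97), SMIM14 (0.964) and SLC16A1-AS1 (0.959). GAP43 was followed by CPVL (0.951), MX2 (0.946) and MANSC1 (0.921), and EEF1A2 by PPAP2C (0.962), LY6E (0.954) and DBNL (0.947). DPYSL3 was followed by TNC (0.942), SORD (0.937) and KARS (0.934), and DPYSL2 by FASTKD5 (0.972), NT5DC3 (0.955) and KIAA1462 (0.949). CRMP1 and CPLX2 shared 1 name, RP6-109B7.3, at 0.911 and 0.891. The others were PLA2G16 (0.891) and B3GAT1 (0.89) for CRMP1, and WSCD1 (0.909) and SLCO3A1 (0.874) for CPLX2. Among the 9 members other than DPYSL4, the next closest pair after NGFR with DPYSL5 and CRMP1 with CPLX2 was CRMP1 with DPYSL5 at 0.60, and GAP43 ran against NGFR at -0.74. These are descriptions of points that share libraries and lines.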

How the data were processed

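RNA-seq libraries were made from total RNA with a stranded mRNA kit, per the labels' protocols, 2 per group. The authors deposited a table of raw read counts and a table of FPKM per Ensembl gene. TopHat2 2.0.4, SAMtools, Picard 1.29, HTSeq 0.6.1, Cufflinks 2.1.1 and build GRCh37 are listed, without their roles, per the submitters' processing notes. No source used here states whether reads were counted by strand, so reads of overlapping genes on opposite strands may be mixed.

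Counts (63677 identifiers, 12743940 to 18948283 per library, which limits genes with few reads) were filtered with filterByExpr (17464 genes kept), scaled by TMM and tested in 1 fit of all 16 libraries with edgeR 4.0.16 quasi-likelihood in R 4.3.3 with Benjamini-Hochberg adjustment. Standard errors come from that fit, and the standard deviations from TMM-scaled CPM. Alternatives used DESeq2 1.42.0 and limma 3.58.1 on log2(FPKM + 1), with other filters, scalings and samples. The scripts were tested on simulated counts. Counting intervals are 95% exact (Clopper-Pearson) and cover counting error only.

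The 10 genes and the gene lists were chosen with earlier results of these data known. Named besides the 10 genes are REST, up to 3 called genes of smallest p per list and comparison, and the 3 most correlated genes per member. Levels of NTRK2, NTRK3, SORT1, EEF1A1 and ESR2 are given as context outside that rule. TMM factors ran from 0.585 to 1.36. Libraries of 1 group differed beyond sampling noise (chi-square per degree of freedom 6.62 to 251), so none was counted as a repeat. Promoters are RefSeq's, on GRCh38.p14. Protein sequences are not used here, and single values of some list genes are not reported here.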

Additional observations from a re-analysis of the deposited data

Results flagged for a closer look

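NGFR, DPYSL3, CRMP1 and CPLX2 moved in opposite directions in the 2 lines under the same contrast, in every library. None of these differences between lines was tested. With the vector, the compared libraries did not overlap in 24.5% of all genes tested in SW620 and 49.5% in SW480. With ERB the shares were 22.5% in SW620 and 22.8% in SW480. How many of all genes moved in opposite directions was not counted. With the empty vector against parental cells, NGFR was lower in the libraries labelled SW480 and higher in SW620, a difference of log2 fold changes (SW480 minus SW620) of -6.37. DPYSL3 was higher with the vector in the libraries labelled SW480 and lower in SW620, a difference of 1.81. With ERB against the empty vector, NGFR was higher in the libraries labelled SW480 and lower in SW620, a difference of 4.83. CRMP1 and CPLX2 showed the same pattern with ERB, with differences of 3.12 and 1.42. In the libraries labelled SW480 the CRMP1 change was called, but the CPLX2 change was not, at 0.95 ± 0.51 (SE, edgeR adjusted p = 0.58). In SW620 the log2 fold changes of NGFR and CPLX2 with ERB were only -0.41 ± 0.38 and -0.47 ± 0.46 (SE). Every one of these differences between lines rests on the empty-vector libraries labelled SW480. Those libraries stood apart from parental SW480, and the part of this in the values was not tested. CRMP1 was picked from the SW620 comparison of ERB with empty vector, so its SW620 direction there is no separate result.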

How the results depend on the processing

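The 14 changes called among the 10 genes kept their direction in all 210 alternatives tried for them, and 193 kept the call. The 17 losses were in CRMP1, DPYSL3, MAP1B and CPLX2 of the SW480 vector comparison, in the 3 genes of the SW480 ERB comparison and in MAP1B with DMSO. With only the libraries of the line, the members called numbered 2 in place of 6 for SW480 empty vector against parental, 0 in place of 3 for SW480 ERB against empty vector, 5 in place of 1 for DMSO against untreated, 5 in place of 0 for estradiol against DMSO and 1 in place of 0 for SW620 empty vector against parental. Nothing is read from the last count, since that comparison helped to choose the genes. Such fits hold fewer libraries, and the larger counts under treatment come with many more calls over all genes. For DMSO, DESeq2 and GC and length offsets each gave 3, and the SW620 libraries with offsets 4. For estradiol the SW620 libraries with offsets gave 2, no filter on low counts gave 1 (EEF1A2), and DESeq2 and the 16-library offsets gave 0. Leaving out 1 library gave 4 to 5 members between the parental lines (1358 to 3910 genes called in all), 5 to 8 for the SW480 vector (2122 to 10643), 2 to 4 for SW480 ERB (89 to 867), 0 for DMSO (0 to 13) and 0 for estradiol (0 to 1). The fits with SW620 libraries and offsets together, and those with crossed numbers, were chosen after seeing the data.

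The labels do not say whether libraries of different groups with the same number, I or II, share anything more than that number. Their deviations from the group means correlated at -0.74 to 0.06 between compared groups, and a replicate block left the members called at 4, 6, 3, 1 and 0 in the 5 tested comparisons, as without it. Pairing the numbers crosswise left them at 4, 6, 3 and 0 in the 4 tested comparisons with a correlation under -0.1. DPYSL4, and DPYSL5 in SW620, had too few reads for a fold change of moderate size to be detectable.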
